A study of Mus musculus with 28 samples.

Results

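Tumour-infiltrating CD8+ T cells that carry both Tim-3 and PD-1 (double positive, DP) were compared with those that carry neither receptor (double negative, DN), in tumours of mice given isotype control antibodies. The comparison rests on 6 of the 28 libraries of the study, 3 of DP cells and 3 of DN cells, and on all 12710 genes that passed a filter on low counts, of 20603 listed. Members were chosen by the labels alone: the sorted phenotype Tim-3+PD-1+ or Tim-3-PD-1- and the treatment isotype. All mice were wild-type C57BL/6 carrying MC38-OVA, a colon carcinoma line that expresses ovalbumin as a model antigen, and cells were sorted on day 12 after the tumours were implanted. The study also holds DP and DN libraries from mice treated with antibodies to PD-1 and Tim-3 (3 each), 14 libraries of PD-1- CD8+ subsets and single-cell data of DN cells. Each bulk library came from lysate of about 2000 cells. The labels do not say whether libraries came from separate mice, and the p-values below therefore reflect no more than the scatter among these libraries. No age or sex of the mice is given.

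PD-1 and Tim-3 are inhibitory receptors. PD-1 is induced by T cell receptor signals and damps them, and Tim-3 appears on T cells whose antigen stimulation has lasted. T cells that carry both in tumours are known as terminally dysfunctional, or exhausted: they keep inhibitory receptors and many effector genes on, while TCF-1, the transcription factor that maintains memory and self-renewal, is low. T cells that carry neither receptor in a tumour can include naive, memory-like and bystander cells. The comparison of these populations without treatment asks how the RNA of the dysfunctional population differs at baseline.

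DP libraries held 9526249 to 12037446 counts and DN libraries 8850713 to 9895277, and genes detected numbered 15264 to 15506 in DP libraries and 15037 to 15581 in DN libraries. Ribosomal RNA (Rn45s) made up 13.3 to 14.5% of counts in DP libraries and 12.6 to 18.1% in DN libraries. The first principal component held 62.8% of the variance and separated DP libraries (-42.53 to -36.67) from DN libraries (51.33 to 61.39). On the second, with 10.5%, DN replicate 2 stood apart at 44.58. Summed levels of 13 core T cell genes, such as those of CD3 and CD8, were 6576 to 7793 counts-per-million (CPM) in DP libraries and 5593 to 7331 in DN libraries, which overlap. Cd8a, a chain of the CD8 co-receptor, was at 710, 645 and 762 CPM in the DP libraries, against 471, 574 and 437 CPM in the DN libraries (log2 difference 0.51 ± 0.12, adjusted p = 0.00731). In all that follows, a difference is DP minus DN on the log2 scale ± its SE, values of a group are given in the order of its replicates 1, 2 and 3, and a gene counts as called where the edgeR quasi-likelihood test gave a Benjamini-Hochberg adjusted p under 0.05 over all genes tested.

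The mRNAs of both sorted receptors followed the sort. Pdcd1, which encodes PD-1, was at 591, 544 and 531 CPM in the DP libraries, against 40.4, 25.4 and 33.8 CPM in the DN libraries (4.06 ± 0.28, adjusted p = 1.09e-06). Havcr2, which encodes Tim-3, was at 285, 293 and 245 CPM in the DP libraries, against 6.32, 2.93 and 2.48 CPM in the DN libraries (6.15 ± 0.36, adjusted p = 5.12e-07). Both were high in every DP library and low in every DN library, and since the cells were sorted on these proteins this checks the labels and is not a finding.

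DP and DN cells differed across a broad part of the transcriptome, with 3794 genes called (29.9% of those tested). In DP cells 1909 genes (15% of those tested) were called higher and 1885 (14.8%) lower. Differences of at least 2-fold were found for 799 of the higher and 861 of the lower genes, of at least 4-fold for 320 and 420, and of at least 16-fold for 106 and 163, while 56.2% of all calls were smaller than 2-fold. Libraries of the groups did not overlap for 2828 genes (22.3%) with higher and 2747 (21.6%) with lower values in DP cells. The median difference over all genes tested was 0.0026. In bulk RNA, fewer cells of a type and less RNA per cell cannot be told apart.

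**Figure D1:**
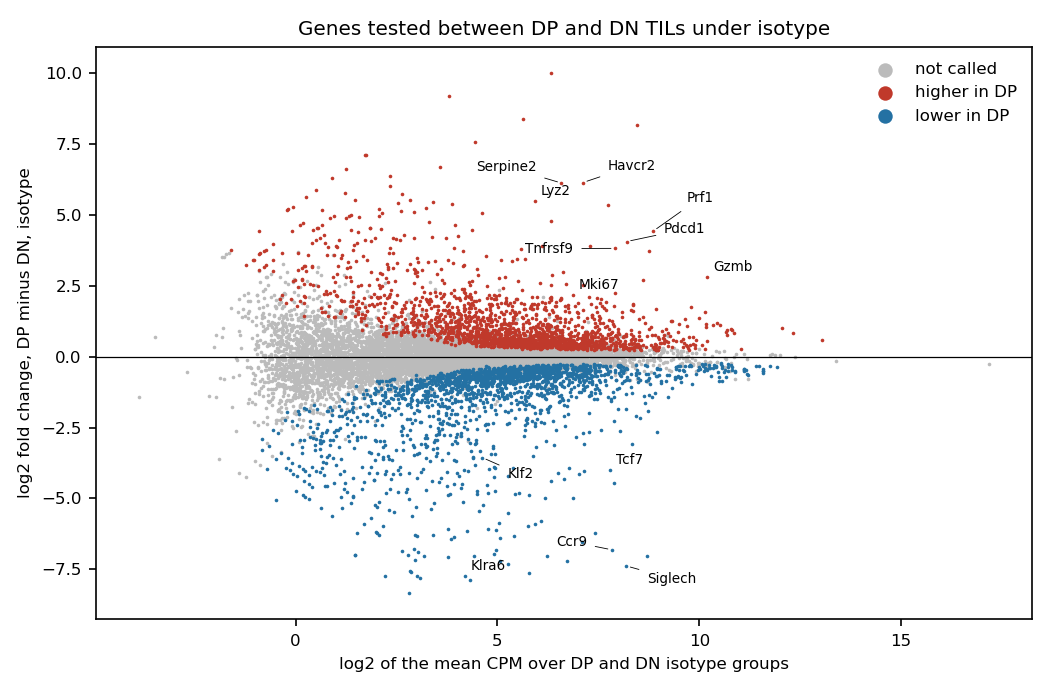
Each point is 1 gene that had counts in both groups, with the log2 of its mean CPM across (mean of the DP and DN isotype means) and the log2 fold change DP minus DN up. Red points are genes called higher in DP cells, blue points genes called lower, grey points were not called; Havcr2, Prf1 and Tnfrsf9 lie above 3.8 and Ccr9 and Siglech below -6.

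Of 22 co-inhibitory receptor and ligand genes tested, sorted receptors aside, 7 were higher and 5 lower in DP cells (31.8% and 22.7%, against 15% and 14.8% of all genes), with a median difference of 0.17. Lag3, a receptor that binds MHC class II, was at 388, 389.9 and 399 CPM in the DP libraries, against 145, 176 and 129 CPM in the DN libraries (1.39 ± 0.16, adjusted p = 5.97e-05). Ctla4, the rival of CD28 for its ligands, was at 358, 285 and 337 CPM in DP cells against 102, 84.9 and 69.98 CPM in DN cells (1.93 ± 0.22). Tigit, a receptor for the poliovirus receptor family, was at 261, 209.8 and 250.3 CPM in DP cells against 138, 101 and 97.5 CPM in DN cells (1.10 ± 0.22). Cd244, which encodes the SLAM family receptor 2B4, reached 57.4, 60.9 and 73.2 CPM in DP cells against 19.9, 27.9 and 16.97 in DN cells (1.57 ± 0.19). In each of these genes all DP libraries lay above all DN libraries. Pdcd1lg2, which encodes the PD-1 ligand PD-L2, was also higher, at 36.6, 33.2 and 38.8 CPM against 7.81, 7.49 and 6.95 CPM in DN cells (2.29 ± 0.16, adjusted p = 1.17e-06). Lilrb4, an inhibitory immunoglobulin-like receptor, differed by 1.09 ± 0.10.

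Other inhibitory receptors were lower in DP cells. Btla, a receptor for the herpesvirus entry mediator that is known from naive lymphocytes, was at 5.09, 3.42 and 6.53 CPM in the DP libraries, against 39.5, 43.3 and 34.1 CPM in the DN libraries (-2.95 ± 0.36, adjusted p = 7.59e-05). Lair1, a collagen receptor, was at 8.98, 10.8 and 10.1 CPM in DP cells against 195, 199 and 117 CPM in DN cells (-4.10 ± 0.23, adjusted p = 5.09e-07). The groups did not overlap in either gene. Cd72, better known from B cells, differed by -1.39 ± 0.21 and Ceacam1, an adhesion receptor, by -1.26 ± 0.33. In the pooled single-cell table of DN cells, 13.6% of the UMIs of Lair1 lay in the few cells with plasmacytoid dendritic cell markers described further on. Klrg1, a receptor of terminal effector cells, was at 30.7, 15.3 and 10.5 CPM in DP cells against 15.2, 12.8 and 10.1 CPM in DN cells and did not pass (adjusted p = 0.502).

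**Figure D2:**
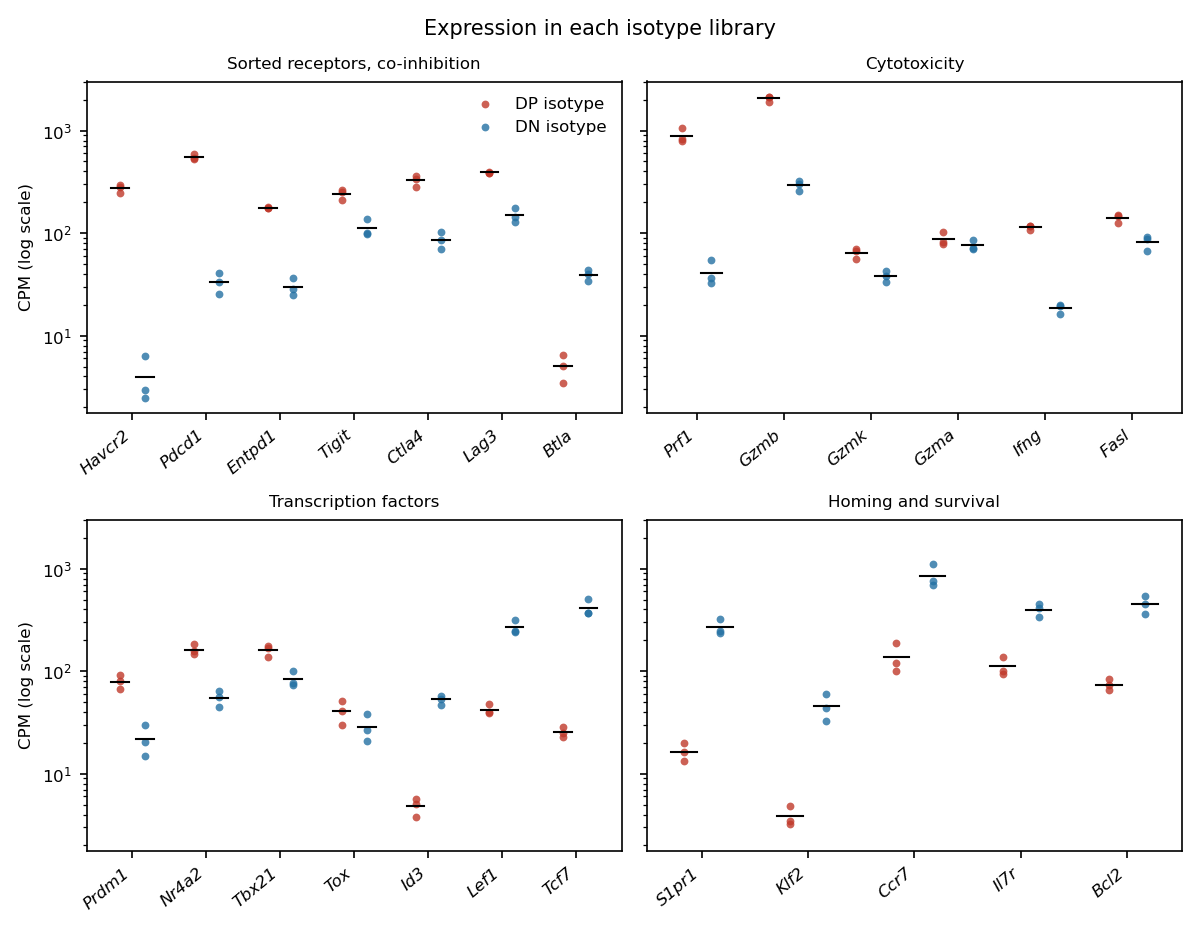
Points are the CPM of single isotype libraries on a log axis, DP libraries (red) left of DN libraries (blue) for each gene, and black lines are group means of 3. The groups are separate for each gene shown except Gzma and Tox, whose points overlap; Havcr2 and Prf1 are high in DP cells and S1pr1 and Tcf7 high in DN cells.

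Genes of extracellular ATP and adenosine handling went both ways, with 3 of 8 higher and 3 lower. Each was 37.5%, against 15% and 14.8% of all genes. Entpd1 encodes CD39, which degrades extracellular ATP and marks tumour-reactive exhausted cells. It was at 176, 179 and 176 CPM in the DP libraries, against 28.4, 36.4 and 24.9 CPM in the DN libraries (2.56 ± 0.18, adjusted p = 1.15e-06). Nt5e encodes CD73, which turns AMP into adenosine, the step after CD39. It was at 13.6, 20.8 and 13.4 CPM in the DP libraries, against 71.3, 86.4 and 55.6 CPM in the DN libraries (-2.16 ± 0.24, adjusted p = 3.57e-05). DP cells thus had the higher CD39 and the lower CD73 mRNA, with no overlap of libraries in either gene. Ada, adenosine deaminase, differed by -1.08 ± 0.24, and Slc29a1, a nucleoside transporter, by 0.58 ± 0.12.

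Transcription factors linked to effector differentiation and dysfunction were more often higher than lower. Of 29 tested, 12 were higher (41.4%) and 3 lower (10.3%), with a median of 0.38. Prdm1, which encodes Blimp-1, a repressor of memory genes, was at 91.8, 79.6 and 66.6 CPM in the DP libraries, against 29.98, 20.3 and 14.8 CPM in the DN libraries (1.87 ± 0.23, adjusted p = 7.66e-05). Nr4a2, an orphan nuclear receptor induced by T cell receptor signals, was at 157, 148 and 182 CPM in DP cells against 55.5, 63.4 and 44.5 CPM in DN cells (1.58 ± 0.14). Id2, an inhibitor of E proteins, was at 845, 641 and 745 CPM in DP cells against 252, 256 and 185 CPM in DN cells (1.69 ± 0.19). DP libraries were above DN libraries in all 3 genes. Rbpj, the effector of Notch signalling, differed by 1.80 ± 0.14, Bhlhe40, a repressor tied to cytokine production and mitochondrial fitness, by 1.76 ± 0.19, Tbx21, which encodes T-bet, by 0.95 ± 0.15, Hif1a, the hypoxia-inducible factor, by 1.06 ± 0.14, and Irf4, which acts downstream of the T cell receptor, by 0.94 ± 0.25. Arnt2, a partner of the Ah receptor and hypoxia factors, had 0 counts in all DN libraries and 3.09, 1.01 and 5.44 CPM in DP libraries. Its DP mean was at least 29.7-fold higher when 3 counts over the DN total are taken as the limit. Later folds given as at least also use the DP mean and leave out the scatter of DP libraries. Irf8 was lower, at 257, 242 and 223 CPM in DP cells against 581, 751 and 519 CPM in DN cells (-1.36 ± 0.20), and 15.7% of its UMIs in single DN cells lay in cells with plasmacytoid dendritic cell markers. Ahr, the Ah receptor, differed by -1.89 ± 0.44.

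Tox, a factor required for exhausted cells to persist, was at 50.99, 30.1 and 41.3 CPM in the DP libraries, against 26.5, 38.1 and 21.04 CPM in the DN libraries. The libraries overlapped and the difference of 0.51 ± 0.24 did not pass (adjusted p = 0.124); without DN replicate 2 it was 0.78 and passed (adjusted p = 0.0275). Nr4a1 was at 338, 282 and 414 CPM in DP cells against 366, 467 and 317 CPM in DN cells and Eomes, the T-box factor of memory and exhausted cells, at 20.4, 20.7 and 19.5 CPM in DP cells against 15.97, 19.1 and 16.9 CPM in DN cells, and neither passed (adjusted p = 0.501 and 0.551).

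Transcription factors of naive and stem-like memory cells were lower in DP cells. Of 20 tested, 16 were lower (80.0%, against 14.8% of all genes) and 0 higher at this threshold, by edgeR, with a median of -1.43. Tcf7, which encodes TCF-1, was at 22.8, 25.1 and 28.8 CPM in the DP libraries, against 369.5, 503 and 366 CPM in the DN libraries (-4.01 ± 0.23, adjusted p = 5.12e-07). Lef1, its partner, was at 47.9, 39.2 and 39.8 CPM in DP cells against 242, 315 and 248 CPM in DN cells (-2.67 ± 0.22). Id3, an E protein inhibitor of naive and memory cells, was at 3.79, 5.64 and 5.11 CPM in DP cells against 57.9, 54.1 and 46.95 CPM in DN cells (-3.45 ± 0.24). Id2 and Id3 therefore differed in opposite directions. Klf2, which drives the genes of lymph node entry and egress, was at 3.49, 4.83 and 3.26 CPM in DP cells against 44.2, 59.3 and 32.7 CPM in DN cells (-3.56 ± 0.28, adjusted p = 2.89e-06). Each of these 4 genes had its 3 DP values below its 3 DN values. Bach2, a repressor that restrains effector differentiation, differed by -2.34 ± 0.33, Foxp1, a quiescence factor, by -1.99 ± 0.15, Foxo1, which acts upstream of Klf2, by -1.24 ± 0.20, and Satb1, a chromatin organiser, by -2.44 ± 0.21. Myc, which drives growth, was also lower, at 84.4, 79.01 and 70.4 CPM in DP against 169.5, 191 and 189.6 CPM in DN cells (-1.23 ± 0.16). Nsg2, a gene of naive T cells, was at 0.998, 0.805 and 0.837 CPM in DP and 60.2, 74.3 and 51.3 CPM in DN cells (-6.12 ± 0.43).

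Homing receptors and survival receptors of naive and memory cells were lower as a group, 19 of 24 (79.2%) with 0 higher and a median of -2.20. S1pr1, the receptor for exit into blood and lymph, was at 13.2, 16.2 and 19.8 CPM in the DP libraries, against 238, 319.5 and 244 CPM in the DN libraries (-4.02 ± 0.28, adjusted p = 1.17e-06). Ccr7, the receptor for lymph node chemokines, was at 189, 101 and 119 CPM in DP cells against 755, 1118 and 699 CPM in DN cells (-2.65 ± 0.34). DN libraries exceeded DP libraries without overlap in both. Il7r, the interleukin-7 receptor chain, was at 139, 94.8 and 101 CPM in DP cells against 409, 452 and 336 CPM in DN cells (-1.84 ± 0.15) and Bcl2, the survival gene downstream of it, at 65.4, 72.97 and 83.4 CPM in DP cells against 455, 547 and 363 CPM in DN cells (-2.62 ± 0.21). Slamf6, a marker of progenitor exhausted cells, differed by -2.58 ± 0.24, Il6ra by -3.09 ± 0.26, Il4ra by -1.85 ± 0.16, and Cxcr5, the follicular chemokine receptor, by -4.39 ± 0.60. Dapl1, a marker of naive cells, was at 0.499, 1.01 and 1.26 CPM in DP cells against 23.8, 35.3 and 22.8 CPM in DN cells (-4.86 ± 0.42). In DN replicate 2 all 19 called genes of this list had the highest value of the 3 DN libraries, and 15 of the 16 called stem and memory factors did. Without it 19 and 15 genes were called.

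Genes of killing were mostly higher in DP cells. Of 20 granzyme, perforin and granule genes tested, 15 were higher (75.0%) and 1 lower, with a median of 1.47. Prf1, the pore-forming perforin, was at 1053, 825 and 786 CPM in the DP libraries, against 36.2, 54.3 and 32.9 CPM in the DN libraries (4.43 ± 0.26, adjusted p = 5.12e-07). Gzmb, granzyme B, was at 2108, 2148 and 1914 CPM in the DP libraries, against 259, 303 and 323 CPM in the DN libraries (2.80 ± 0.24, adjusted p = 4.54e-06). Gzmk was at 55.9, 67.6 and 70.3 CPM in DP cells against 33.3, 38 and 42.4 CPM in DN cells (0.77 ± 0.15, adjusted p = 0.00183). All DP libraries exceeded all DN libraries in these genes. Gzma, granzyme A, was at 82.7, 103 and 78.4 CPM in DP cells against 86.6, 72.2 and 70.5 CPM in DN cells, overlapped and did not pass (adjusted p = 0.777), and Gzmm was lower, at 2.29, 4.03 and 2.85 CPM in DP and 14.8, 25.1 and 20.2 CPM in DN cells (-2.71 ± 0.38).

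Granzymes C to G form a cluster of genes with near-identical stretches, so reads may be split wrongly among them. Gzmf was at 667, 503 and 353 CPM in DP libraries and had 0 counts in all DN libraries, at least 4738-fold higher. Gzmd was at 194, 171 and 114 CPM in DP cells against 0.115, 0 and 0.298 CPM in DN cells (adjusted p = 1.76e-05) and Gzme at 122, 111 and 63.9 CPM in DP cells against 0, 0.869 and 0 CPM in DN cells (adjusted p = 1.15e-05). Gzmc was at 474, 446 and 335 CPM in DP cells against 7.47, 22.8 and 0.596 CPM in DN cells (5.36 ± 0.69, and 6.75 without DN replicate 2), with DN replicate 2 the highest of the DN libraries. Nkg7, a granule membrane protein, differed by 1.15 ± 0.12 and Ctsd, cathepsin D, by 1.38 ± 0.12. Serpinb9, which shields killer cells from their own granzyme B, and its relative Serpinb9b were higher too. Serpinb9 was at 433, 434 and 343 CPM in DP cells against 149, 120.2 and 141 CPM in DN cells (1.56 ± 0.13) and Serpinb9b at 1073, 452 and 562 CPM in DP cells against 2.76, 3.69 and 0.893 CPM in DN cells (8.17 ± 0.66, adjusted p = 3.55e-06). For both genes the lowest DP value lay above the highest DN value.

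Among cytokines and death ligands 9 of 16 were higher (56.2%) and 2 lower, with a median of 0.86. Ifng, interferon gamma, was at 116, 119 and 107 CPM in the DP libraries, against 16.4, 20.1 and 19.4 CPM in the DN libraries (2.61 ± 0.22, adjusted p = 4.54e-06). Tnf was at 58.1, 53.4 and 68.97 CPM in DP cells against 32.05, 37.02 and 25.5 CPM in DN cells (0.93 ± 0.22) and Fasl, the ligand of the death receptor Fas, at 149, 126 and 148 CPM in DP cells against 86.7, 92.6 and 67.7 CPM in DN cells (0.78 ± 0.13). Csf1, the macrophage growth factor, was at 74.8, 36.5 and 59.3 CPM in DP cells against 6.78, 6.41 and 11.8 CPM in DN cells (2.76 ± 0.43). DP values exceeded DN values in each of the 4. Tnfsf10, which encodes TRAIL, differed by 1.03 ± 0.17 and Tnfsf11, which encodes RANKL, by 1.91 ± 0.39, while Tnfsf8, the CD30 ligand, was lower at 2.49, 1.31 and 1.67 CPM in DP against 22.5, 28.7 and 18.1 CPM in DN cells (-3.65 ± 0.44). Il2, the T cell growth factor, was near the limit of detection at 0.299, 0.403 and 0.586 CPM in DP cells against 1.03, 1.09 and 0.794 CPM in DN cells and did not pass (adjusted p = 0.306).

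Chemokine genes were higher for 5 of 11 tested (45.5%), with 0 lower. Ccl3, an inflammatory chemokine, was at 177, 186 and 165 CPM in the DP libraries, against 20.6, 25.9 and 19.4 CPM in the DN libraries (3.002 ± 0.27, adjusted p = 6.8e-06), and Ccl4 at 319.7, 292 and 316 CPM in DP cells against 208, 207 and 137 CPM in DN cells (0.75 ± 0.18). Ccl1, the ligand of CCR8, was at 17.7, 15.8 and 13.3 CPM in DP libraries with 0 counts in DN libraries, at least 146-fold higher, and its receptor gene Ccr8 was at 27.3, 12.4 and 25.1 CPM in DP cells against 3.91, 2.06 and 1.59 CPM in DN cells (3.11 ± 0.47). Ccl5, another inflammatory chemokine, was at 776, 1004 and 992 CPM in DP cells against 933, 1233 and 1166 CPM in DN cells, with overlap, and did not pass (adjusted p = 0.189). Receptors were split, with 7 of 15 higher (46.7%) and 6 lower (40%), against 15% and 14.8% of all genes. Cxcr6, a receptor that keeps T cells in tumours, was at 686, 547 and 783 CPM in the DP libraries, against 119, 112 and 79.1 CPM in the DN libraries (2.70 ± 0.29, adjusted p = 2.63e-05). Ccr2 differed by 1.37 ± 0.19, Cx3cr1, the fractalkine receptor, by 1.78 ± 0.29, and Xcr1 by 2.05 ± 0.32. On the lower side, Cxcr4 differed by -1.61 ± 0.28 and S1pr4 by -0.69 ± 0.10, and Ccr9, the gut and thymus homing receptor, was at 4.29, 5.23 and 2.68 CPM in DP cells against 478, 549 and 334 CPM in DN cells (-6.81 ± 0.32, adjusted p = 2.65e-07). In single DN cells 22.3% of the UMIs of Ccr9 lay in cells with plasmacytoid dendritic cell markers, a cell type that also carries this receptor.

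Costimulatory genes were higher for 11 of 18 (61.1%) and lower for 2, with a median of 0.85. Tnfrsf9, which encodes 4-1BB, a receptor induced by antigen, was at 548, 426 and 379 CPM in the DP libraries, against 21.9, 36.3 and 37.2 CPM in the DN libraries (3.82 ± 0.26, adjusted p = 1.09e-06). Tnfrsf4, which encodes OX40, was at 114, 76.3 and 77.5 CPM in DP cells against 8.16, 3.04 and 7.74 CPM in DN cells (3.82 ± 0.30), and Tnfrsf18, which encodes GITR, at 222, 156 and 177 CPM in DP cells against 103, 106 and 95.5 CPM in DN cells (0.87 ± 0.16). DP libraries were the higher ones in all 3 receptors. Cd80, a CD28 ligand better known from antigen-presenting cells, was at 8.68, 10.5 and 8.54 CPM in DP cells against 1.38, 0.326 and 0.496 CPM in DN cells (3.65 ± 0.43, and 4.47 without DN replicate 1). Cd7 was lower, at 5.59, 6.54 and 9.79 CPM in DP cells against 142, 163 and 155 CPM in DN cells (-4.38 ± 0.26, adjusted p = 5.41e-07), and 1.37% of its UMIs in single DN cells lay in the dendritic marker cells, which held 0.944% of all UMIs.

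Cytokine receptor genes were split, 7 of 22 higher and 7 lower (31.8% each, against 15% and 14.8% of all genes). Il2ra, the high-affinity chain of the interleukin-2 receptor, was at 86.1, 75.8 and 61.1 CPM in the DP libraries, against 11.6, 5.65 and 4.47 CPM in the DN libraries (3.37 ± 0.34, adjusted p = 1.81e-05). Il12rb2 differed by 1.47 ± 0.22, Il10ra by 1.06 ± 0.15 and Il18rap by 1.03 ± 0.17, all higher, whereas Tgfbr1, a receptor for TGF-beta, differed by -1.29 ± 0.19 and Il17ra by -0.94 ± 0.13. Il1r2, a decoy receptor for interleukin-1, was at 194, 82.8 and 112 CPM in DP cells against 6.09, 18.8 and 1.19 CPM in DN cells (3.91 ± 0.70, and 5.197 without DN replicate 2). Adhesion and residency genes were higher for 8 of 18 (44.4%) and lower for 3 (16.7%, against 14.8% of all genes). Itga1, the CD49a chain of a collagen receptor, was at 72.9, 78.5 and 94.7 CPM in DP cells against 19.3, 14.3 and 14.3 CPM in DN cells (2.36 ± 0.31) and Itgav at 84.2, 74.98 and 71.5 CPM in DP cells against 21.9, 15.4 and 34.9 CPM in DN cells (1.67 ± 0.23). Itgae, the CD103 chain of the receptor for E-cadherin, was lower at 8.58, 1.61 and 5.44 CPM in DP cells against 40.2, 78.4 and 50.8 CPM in DN cells (-3.43 ± 0.47, adjusted p = 0.000179), so integrin genes of tissue residency differed in both directions. Rgs16, a brake on G protein signalling, was at 768, 798 and 839 CPM in DP cells against 85.6, 61.3 and 35.5 CPM in DN cells (3.72 ± 0.31, adjusted p = 4.31e-06) and Rgs1 at 1161, 998 and 1242 CPM in DP cells against 566, 642 and 391 CPM in DN cells (1.09 ± 0.18). DP libraries lay above DN libraries for both.

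Killer lectin receptor genes fell into separate families. Of the 4 NKG2 and CD94 genes in the list, 3 were higher in DP cells and Klrc2 was not called. Klrc1, which encodes NKG2A, was at 259.5, 229 and 267 CPM in the DP libraries, against 76.8, 75.99 and 57.6 CPM in the DN libraries (1.84 ± 0.16, adjusted p = 4.48e-06), Klrd1, which encodes its partner CD94, differed by 0.71 ± 0.12 and Klrk1, which encodes the activating receptor NKG2D, by 1.39 ± 0.19. Of 13 Ly49 genes (Klra) tested, whose near-identical copies make their counts uncertain, 9 were lower in DP cells, 1 was higher and 3 were not called. Klra7 was at 0.698, 2.01 and 0.502 CPM in DP cells against 92.1, 76.6 and 83.7 CPM in DN cells (-6.32 ± 0.47, and -7.12 without DP replicate 2), Klra6 at 0, 0.503 and 0 CPM in DP cells against 43.2, 30.2 and 35.4 CPM in DN cells and Klra9 at 0.200, 0.705 and 0.335 CPM in DP cells against 14.5, 11.8 and 14.7 CPM in DN cells (-5.02 ± 0.76). Every DN library held more of each than every DP library. Klra2 was the higher one, at 3.29, 3.12 and 5.61 CPM in DP cells against 0.230, 0 and 0.794 CPM in DN cells (3.47 ± 0.91, adjusted p = 0.0117, and 5.02 without DN replicate 3). Of all 16 genes of the list, 6 were higher (37.5%) and 8 lower (50%), against 15% and 14.8% of all genes. None of the 8 lower genes had over 5% of its UMIs in dendritic marker cells.

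Brakes on T cell receptor and cytokine signals went both ways, with 9 of 33 higher (27.3%) and 7 lower (21.2%). Ubash3b, a phosphatase that restrains T cell receptor signals, was at 65.5, 57.4 and 65.7 CPM in the DP libraries, against 20.1, 19.4 and 19.9 CPM in the DN libraries (1.67 ± 0.11, adjusted p = 7.78e-07). Dusp4, which inactivates ERK, was at 65.9, 71.4 and 63.5 CPM in DP cells against 22.97, 15.9 and 14.3 CPM in DN cells (1.92 ± 0.19) and Cish, a restraint on receptor signals, at 317, 259 and 364 CPM in DP cells against 136, 97.6 and 67.8 CPM in DN cells (1.64 ± 0.23). Socs3, an inhibitor of interleukin-6 type signals, was lower at 137, 108 and 149 CPM in DP cells against 541, 671 and 449.6 CPM in DN cells (-2.08 ± 0.20, adjusted p = 1.01e-05) and Dusp10 at 35.02, 33.7 and 45.3 CPM in DP cells against 155, 189 and 143 CPM in DN cells (-2.09 ± 0.15). None of these 5 genes showed overlap between groups.

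Genes of the cell cycle were higher in DP cells nearly as a whole. Of 34 genes of DNA replication, 31 were higher (91.2%, against 15% of all genes), with a median of 1.16, and of 33 genes of mitosis 32 were higher (97.0%), with a median of 1.81, and 0 of either list were lower at this threshold by edgeR. Replication genes are known to be switched on by E2F factors, and mitotic genes by the DREAM and MMB complexes through a CCAAT box and an element called CHR. The stretches below are from promoters of called genes and carry these letters, with motif letters in capitals (CCAAT or its reverse complement, and TTTGAA or its reverse complement, for the first 3; TTCCCGC or TTGGCGC or their reverse complements for the last 3). They are from RefSeq promoters of the GRCm38.p6 build, printed 5′ to 3′ on the strand of the gene.
Mki67, chr7:135716460-135716579, minus strand: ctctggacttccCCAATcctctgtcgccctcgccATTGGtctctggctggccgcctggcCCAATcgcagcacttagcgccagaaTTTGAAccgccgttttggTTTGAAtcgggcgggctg
Kif11, chr19:37376325-37376380, plus strand: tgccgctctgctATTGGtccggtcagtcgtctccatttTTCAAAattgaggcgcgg
Prc1, chr7:80294402-80294463, plus strand: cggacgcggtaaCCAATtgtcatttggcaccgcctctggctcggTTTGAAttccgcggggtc
Rrm1, chr7:102441616-102441646, plus strand: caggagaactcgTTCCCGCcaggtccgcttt
Mcm5, chr8:75109333-75109378, plus strand: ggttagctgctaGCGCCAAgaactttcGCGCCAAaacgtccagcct
Mcm6, chr1:128359733-128359826, minus strand: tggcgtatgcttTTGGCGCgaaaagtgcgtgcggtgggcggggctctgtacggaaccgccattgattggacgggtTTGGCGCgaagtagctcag

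In the 250 bases before the start, searched on both strands, 24 of 29 promoters of the mitosis list (82.8%) held CCAAT, against 33.8% of all 32851 promoters, and 9 (31.0%) held CCAAT and TTTGAA, against 5.5%. Of 34 promoters of the replication list, 14 (41.2%) held TTCCCGC or TTGGCGC, against 5.6%. The reverse complement of CCAAT can share letters with TTGGCGC. Promoters were found for 28 of 33 mitosis and 29 of 34 replication genes, some with more than 1 start. These are matches of letters and not measured binding.

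Mki67, which encodes the proliferation marker Ki-67, was at 195, 173 and 204 CPM in the DP libraries, against 54.7, 32.8 and 39.1 CPM in the DN libraries (2.18 ± 0.16, adjusted p = 1.51e-06). Kif11, a motor of the spindle, was at 134, 120.4 and 139 CPM in DP cells against 36.2, 19.4 and 37.1 CPM in DN cells (2.08 ± 0.22) and Prc1, which bundles the central spindle, at 112, 143 and 144 CPM in DP cells against 40.5, 17.5 and 58.5 CPM in DN cells (1.77 ± 0.32). DP values lay within a narrow band for these genes, while DN replicate 2 was the lowest of all libraries. Mcm5, a subunit of the replicative helicase, was at 275, 270.1 and 233 CPM in DP cells against 119.7, 93.8 and 102 CPM in DN cells (1.303 ± 0.12, adjusted p = 6.73e-06), Rrm1, the large subunit of ribonucleotide reductase, at 268, 275 and 253 CPM in DP cells against 107, 67.4 and 121 CPM in DN cells (1.43 ± 0.17) and Mcm6 at 391, 358 and 369.8 CPM in DP cells against 232, 177 and 226 CPM in DN cells (0.82 ± 0.10). No DN library reached a DP library in any of them. Summed over the mitosis list, DP libraries held 3903, 4151 and 4084 CPM and DN libraries 1434, 582 and 1728 CPM, and for replication 4054, 3981 and 3744 CPM in DP against 2116, 1627 and 2062 CPM in DN. DN replicate 2 was the lowest DN library in all 32 called mitosis genes and in 25 of the 31 called replication genes. Without it, 32 and 30 genes were higher. Summed tumour and stroma markers were also lowest in that library, at 354.7 CPM against 1477 CPM in the highest DN library, and 767.2 to 1192 CPM in DP libraries; the part of such cells in the cell cycle values was not tested.

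A list of cell cycle inhibitors together with G1 cyclins and their kinases was split, with 7 of 18 higher and 4 lower. These were 38.9% and 22.2%, against 15% and 14.8% of all genes. Cdkn1a, which encodes the inhibitor p21, was at 104, 120 and 85.96 CPM in DP cells against 44.1, 25.6 and 53.4 CPM in DN cells (1.33 ± 0.23), and Ccne1, cyclin E1, which drives entry into S phase, at 46.9, 44.1 and 45.03 CPM in DP cells against 20.4, 13.6 and 15.5 CPM in DN cells (1.46 ± 0.15). Cdkn1b, which encodes the quiescence inhibitor p27, was lower at 42.5, 38.7 and 39.8 CPM in DP cells against 70.3, 86.4 and 52.9 CPM in DN cells (-0.79 ± 0.16), as were Btg1 (-0.87 ± 0.16) and Pdcd4 (-1.13 ± 0.14). The groups did not overlap in any of these.

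Glycolysis and hypoxia genes were higher for 19 of 28 (67.9%) and lower for 1, with a median of 0.92. Slc2a3, a glucose transporter, was at 334, 266 and 264 CPM in the DP libraries, against 65.8, 77.7 and 61.4 CPM in the DN libraries (2.07 ± 0.18, adjusted p = 4.48e-06). Pfkp, phosphofructokinase, differed by 0.94 ± 0.11, Aldoa, aldolase, by 1.12 ± 0.14, Eno1, enolase, by 1.11 ± 0.23 and Ldha, lactate dehydrogenase, by 0.96 ± 0.15. Slc16a3, the lactate exporter, was at 101, 93.8 and 80.2 CPM in DP cells against 22.7, 9.01 and 43.3 CPM in DN cells (1.87 ± 0.39, and 2.53 without DN replicate 3). Pdk1, a kinase that keeps pyruvate out of mitochondria, was the 1 lower gene, at 76.3, 76.2 and 68.7 CPM in DP cells against 98.5, 106 and 112 CPM in DN cells (-0.51 ± 0.13). DN replicate 2 was again the lowest DN library in 14 of the 20 called genes. With single libraries left out, 14 to 20 genes were higher. Genes of the respiratory chain were higher for 8 of 27 (29.6%) with 0 lower and a median of 0.23. Cox5a, a subunit of cytochrome oxidase, was at 214, 185 and 207 CPM in DP cells against 115, 116 and 129 CPM in DN cells (0.75 ± 0.10, adjusted p = 0.000112), and the other 7 differed by less.

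**Figure D3:**
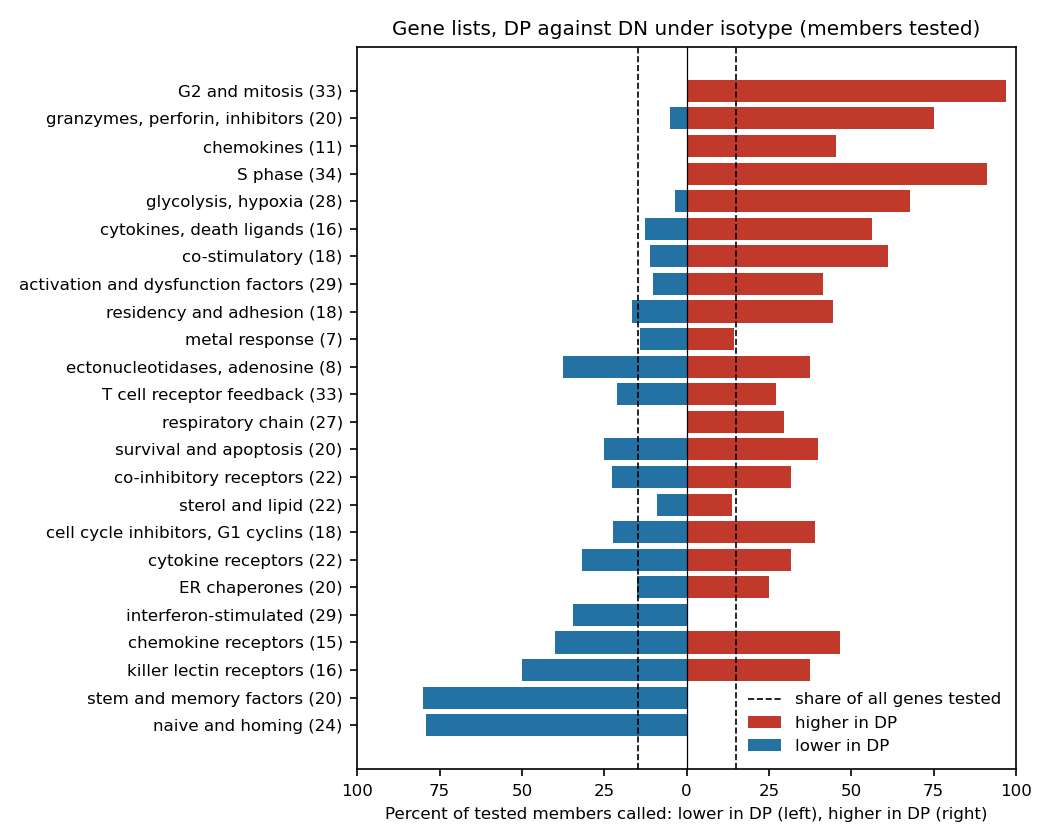
Bars give the percent of tested members of each gene list called higher (right, red) and lower (left, blue) in DP cells, with the number of members tested beside the name; dashed lines mark the 15% and 14.8% of all genes tested. Mitosis and replication genes reach furthest right and stem and memory factors and naive and homing genes furthest left.

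Interferon-stimulated genes were lower for 10 of 29 (34.5%, against 14.8% of all genes) and higher for 0 by this test, with a median of -0.33. Oasl2, an antiviral gene, was at 17.5, 20.9 and 21.01 CPM in DP cells against 46.98, 49.3 and 51.9 CPM in DN cells (-1.32 ± 0.27, adjusted p = 0.00307), Irf7, which amplifies type I interferon, at 109.8, 118 and 164 CPM in DP cells against 227, 283 and 218 CPM in DN cells (-0.89 ± 0.20) and Ifi44 at 0.599, 2.62 and 2.18 CPM in DP cells against 11.8, 14.4 and 19.95 CPM in DN cells (-3.09 ± 0.64). DP libraries were below DN libraries in each. Irf7 and Bst2 (-1.43 ± 0.17) are also known to be high in plasmacytoid dendritic cells, and of the 9 lower genes that could be measured in single DN cells, 0 had over 5% of their UMIs in cells with markers of that type (median 1.56%). Without DP replicate 1, 5 genes of the list were lower. In the lists with 0 genes called on a side (stem and memory factors, naive and homing, chemokine, replication, mitosis, respiratory chain and interferon-stimulated genes), that side also held 0 genes at an unadjusted p under 0.05 and by DESeq2, except 1 respiratory chain gene lower at an unadjusted p under 0.05.

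Endoplasmic reticulum, lipid and survival genes were called in both directions. Of 20 endoplasmic reticulum genes 5 were higher (25%, against 15% of all genes) and 3 lower (15%, against 14.8%), with a median of 0.02; 2 were higher without DN replicate 2, or without DP replicate 1 or 2. Xbp1, a driver of the secretory programme that is also high in plasmacytoid dendritic cells, was at 89.1, 98.3 and 92.99 CPM in DP cells against 189, 201 and 165 CPM in DN cells (-0.98 ± 0.13) and Herpud1 at 96.5, 108 and 96.7 CPM in DP cells against 268, 250.3 and 209 CPM in DN cells (-1.27 ± 0.12). Of 22 sterol and lipid genes 3 were higher (13.6%) and 2 lower (9.09%), both below the shares of all genes. Cyp51 differed by 0.58 ± 0.13 and Abcg1, a cholesterol exporter, by -2.26 ± 0.16. Mt3, a metallothionein, was at 4.39, 5.23 and 4.18 CPM in DP cells against 0.230, 0.109 and 0.0993 CPM in DN cells (4.89 ± 0.78), the only higher gene of the 7 metal response genes tested. Among survival genes 8 of 20 were higher (40%) and 5 lower (25%), against 15% and 14.8% of all genes. Bcl2a1d, a survival gene with near-identical copies, was at 168, 146 and 149 CPM in DP cells against 32.96, 41.5 and 35.04 CPM in DN cells (2.08 ± 0.17, adjusted p = 4.31e-06). Bcl2l11, which encodes the death inducer Bim, differed by -1.17 ± 0.24, the death receptor gene Fas by -1.46 ± 0.26 and Mcl1, an inhibitor of death, by -0.77 ± 0.12. Inhibitors of death were thus on both sides.

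Beyond the lists, the naming rule took the genes with the smallest p. Serpine2, a secreted protease inhibitor, was at 203, 179 and 186 CPM in the DP libraries, against 4.59, 1.74 and 1.89 CPM in the DN libraries (6.13 ± 0.41, and 6.73 without DN replicate 1). Gipc2, a scaffold protein, was at 35.3, 27.4 and 21.3 CPM in DP cells against 0, 0.109 and 0 CPM in DN cells (adjusted p = 1.08e-06), and Sv2c, named for synaptic vesicles, at 34.6, 29.4 and 24.9 CPM in DP cells against 1.15, 1.41 and 0.993 CPM in DN cells (4.63 ± 0.32). Arsb, a lysosomal sulfatase, was at 275, 247 and 279 CPM in DP cells against 85.5, 81.3 and 72.96 CPM in DN cells (1.74 ± 0.11), and Osbpl3, an oxysterol-binding protein, at 122, 118 and 151 CPM in DP cells against 33.7, 30.7 and 26.6 CPM in DN cells (2.10 ± 0.15). All 5 were higher in every DP library. On the lower side, Pde2a, a cyclic nucleotide phosphodiesterase, was at 3.59, 3.32 and 2.01 CPM in the DP libraries, against 239.7, 323 and 253 CPM in the DN libraries (-6.53 ± 0.39, adjusted p = 6.47e-07), and 0.170% of its UMIs in single DN cells lay in dendritic marker cells. The other lower genes of smallest p were mostly different in that respect. Smim5 was at 0.0998, 0.503 and 0.335 CPM in DP cells against 43.99, 46.2 and 36.3 CPM in DN cells (-7.02 ± 0.36), Pltp, a lipid transfer protein, at 5.59, 4.13 and 3.93 CPM in DP cells against 368, 379.9 and 271 CPM in DN cells (-6.22 ± 0.33), and Lifr, the receptor for leukaemia inhibitory factor, at 4.29, 4.53 and 4.44 CPM in DP cells against 139, 169.7 and 110.4 CPM in DN cells (-4.98 ± 0.25). In single DN cells 42.9%, 18.7% and 20% of their UMIs (33 of 77, 34 of 182 and 6 of 30) lay in dendritic marker cells.

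Markers of other cell types moved with the comparison. The summed level of 20 dendritic cell genes was 613.1 to 955 CPM in DP libraries and 2468 to 3481 CPM in DN libraries. In a DP library 1 to 2 of these genes were at 0, and in a DN library 0 to 1. Of the 19 tested, 13 were lower (68.4%, against 14.8% of all genes) and 1 higher (5.26%, against 15%). The higher gene was Xcr1, at 14.5, 16.4 and 18.2 CPM in DP cells against 3.79, 4.34 and 3.67 CPM in DN cells. Siglech, a receptor of plasmacytoid dendritic cells, was at 2.99, 7.45 and 0.335 CPM in the DP libraries, against 561, 725 and 459 CPM in the DN libraries (-7.38 ± 0.63, and -8.51 without DP replicate 2). Klk1 was at 0.798, 1.41 and 2.01 CPM in DP cells against 215, 237 and 182 CPM in DN cells (-7.19 ± 0.48) and Tcf4, the factor that defines this cell type, at 24.3, 27.9 and 23.2 CPM in DP cells against 143, 186 and 124 CPM in DN cells (-2.59 ± 0.18). The DN libraries held them throughout and the DP libraries nearly lacked Siglech and Klk1. Cd4 was at 3.49, 1.11 and 2.59 CPM in DP cells against 141, 139.6 and 119.5 CPM in DN cells (-5.79 ± 0.33, adjusted p = 5.12e-07), although CD8+ cells were sorted. B cell markers summed to 4.59 to 9.877 CPM in DP and 85.07 to 106.7 CPM in DN libraries, with 4 of 8 tested lower (50%). Pax5, which defines B cells, was at 0 to 0.115 CPM in all 6 libraries. Blk was at 0 CPM in all DP libraries and at 1.15, 0.977 and 0.893 CPM in DN libraries. Neither passed the filter on low counts. Natural killer and gamma-delta T cell markers summed to 142.2 to 157.3 CPM in DP and 344 to 453.6 CPM in DN libraries. Of these, 3 of 6 tested were lower (50%). CD4 and regulatory T cell markers summed to 396.6 to 497.3 CPM in DP and 219.2 to 288 CPM in DN libraries. In that list 5 of 9 were higher (55.6%) and 2 lower (22.2%). The last list holds Ctla4 and Il2ra, which exhausted CD8 cells also use. Foxp3, the factor of regulatory T cells, was at 13.5, 4.73 and 13.1 CPM in DP cells against 1.61, 1.63 and 0 CPM in DN cells (3.29 ± 0.69, and 2.68 without DN replicate 3).

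Myeloid markers were split, with 9 of 24 higher (37.5%) and 5 lower (20.8%), against 15% and 14.8% of all genes. Their sum was 505 to 546.2 CPM in DP libraries and 568.3 to 862 CPM in DN libraries. Lyz2, the lysozyme of macrophages and neutrophils, which is nearly identical to Lyz1, was at 136, 112 and 108 CPM in the DP libraries, against 3.68, 1.63 and 2.58 CPM in the DN libraries (5.50 ± 0.61, adjusted p = 3.74e-05). Itgam, which encodes CD11b, was at 21.3, 24.4 and 29.7 CPM in DP cells against 1.84, 3.80 and 1.49 CPM in DN cells (3.40 ± 0.38), and Fcgr1, a macrophage Fc receptor, at 10.2, 10.7 and 9.12 CPM in DP libraries with 0 counts in DN libraries, at least 93.2-fold higher. Tyrobp, an adaptor of myeloid, natural killer and dendritic cells, was lower at 31.4, 26.2 and 32.1 CPM in DP cells against 242, 299 and 214 CPM in DN cells (-3.07 ± 0.26), and Cybb, the phagocyte oxidase, at 13.3, 12.3 and 15.2 CPM in DP cells against 224, 257 and 139.8 CPM in DN cells (-3.92 ± 0.34). Cd68, a lysosomal protein of macrophages, was lower too, at 14.5, 19.02 and 18.3 CPM in DP cells against 46.1, 52.1 and 34.4 CPM in DN cells (-1.35 ± 0.23), and Cd163, a macrophage scavenger receptor, at 0.599, 0.101 and 0 CPM in DP cells against 4.25, 3.37 and 1.89 CPM in DN cells (-3.74 ± 1.01, and -5.75 without DP replicate 1), a call lost without DP replicate 2 or 3 (adjusted p = 0.0583 and 0.051). Genes of the myeloid list were thus called on both sides. In single DN cells 23.4% of the UMIs of Cybb (68 of 290) lay in cells with plasmacytoid dendritic cell markers. It was 10.8% for Tyrobp (282 of 2609) and 3.26% for Cd68, against 0% for Lyz2, Itgam and Fcgr1. Of 12 blood and platelet genes the summed level was 2402 to 5377 CPM in DP and 4661 to 8771 CPM in DN libraries, which overlap. The part of these cells in the differences of other genes was not tested in the bulk libraries.

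Single-cell counts of DN cells, a description added after the values above were seen, show in which cells the lower genes lie. The deposited table pools DN cells of isotype and of blockade mice, with 5471 cells in all, no filter, no doublet removal, and 7 barcodes that occur in both libraries. UMIs of at least 2 of 5 plasmacytoid dendritic cell markers (Siglech, Klk1, Cox6a2, Cd209d and Pacsin1) were found in 30 cells, 0.548% of cells (95% exact interval 0.370 to 0.782%, counting error only), which held 0.944% of UMIs. Their median was 5148.5 UMIs, against 3739 in other cells, and 93.3% of them also had a UMI of a CD3 or CD8 gene, against 99.0% of other cells. The part of doublets and of free RNA in these counts was not tested. Of the genes lower in DP cells with at least 20 UMIs, 138 of 1609 (8.58%) had over 5% of their UMIs in these 30 cells, against 342 of all 10435 (3.28%) and 13 of 1689 (0.770%) of the genes higher in DP cells. The share grew with the size of the difference: 93 of 272 genes (34.2%) lower by at least 4-fold and 46 of 92 (50%) lower by at least 16-fold. The part of a gene's UMIs in these cells was 65.6% for Cd4 (21 of 32). For Bcl11a, a factor of plasmacytoid dendritic and B cells, it was 47.4% (36 of 76). It was 30% for Fcrla (21 of 70), 21.4% for Pld4 (125 of 584) and 16.1% for Tcf4 (46 of 286).

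The naive and memory genes lay elsewhere. None of the 19 lower homing and naive genes, and none of the 16 lower stem and memory factors, had over 5% of UMIs in the 30 marker cells, with medians of 0.556% and 0.484%. It was 0.285% for Tcf7, 0.353% for Lef1, 0.212% for S1pr1, 0.534% for Klf2, 0.554% for Il7r and 0.344% for Bcl2, below the 0.944% of all UMIs that these cells held. With the 5 genes that chose the cells left out, it was over 5% for 6 of 7 lower dendritic cell genes measured.

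**Figure D4:**
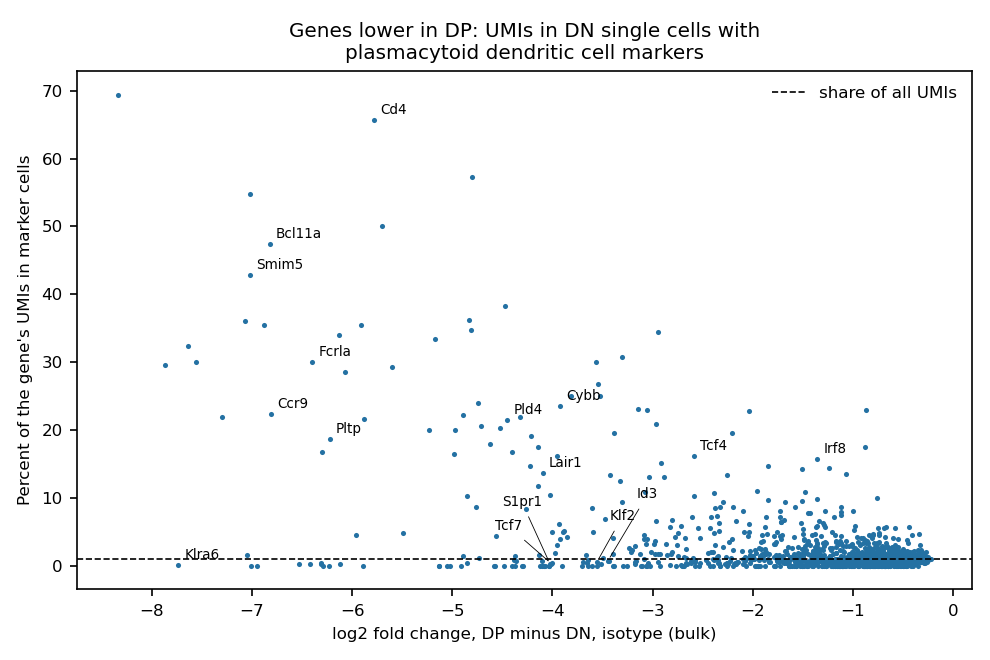
Each point is a gene called lower in DP cells, with its bulk log2 fold change DP minus DN across and the percent of its UMIs that lay in the 30 DN single cells with plasmacytoid dendritic cell markers up. The dashed line marks the 0.944% of all UMIs held by these cells; Cd4 and Bcl11a lie far above it, and Tcf7, S1pr1 and Klf2 lie near it.

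The same contrast was measured in blockade mice, whose libraries share none with the isotype comparison. Both contrasts came from 1 fit with a shared filter and a shared estimate of the spread, so their calls are not independent tests. Under blockade 1836 genes (14.4%) were higher and 1590 (12.5%) lower in DP cells. Of the genes higher under isotype, 1314 were also higher under blockade, which is 68.8% of the isotype and 71.6% of the blockade calls, and of the lower genes 1132, which is 60.1% and 71.2%. The median difference of the genes higher under isotype was 0.83 under isotype, where they were selected, and 0.65 under blockade, and of the lower genes -0.91 and -0.68. Havcr2 differed by 3.63, Pdcd1 by 2.52, Prf1 by 3.41, Gzmb by 2.35 and Tcf7 by -3.67 under blockade, in the same direction as under isotype.

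The difference between isotype and blockade contrasts was tested for each gene. edgeR called 0 of 12710 genes, with 1070 at an unadjusted p under 0.05 and a smallest adjusted p of 0.152, and DESeq2 called 97, with 1148 at an unadjusted p under 0.05. For Havcr2 the isotype difference was the larger in size, with 2.51 ± 0.43 between the contrasts (adjusted p = 0.192), and likewise for Pdcd1 (1.54 ± 0.35, adjusted p = 0.261), and neither passed. Blood and platelet genes summed to 18.96 to 46.9 CPM in DP and 21.38 to 207.9 CPM in DN libraries under blockade, below every isotype library, and dendritic genes to 862.1 to 978.5 CPM in DP and 1554 to 2405 CPM in DN libraries.

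**Figure D5:**
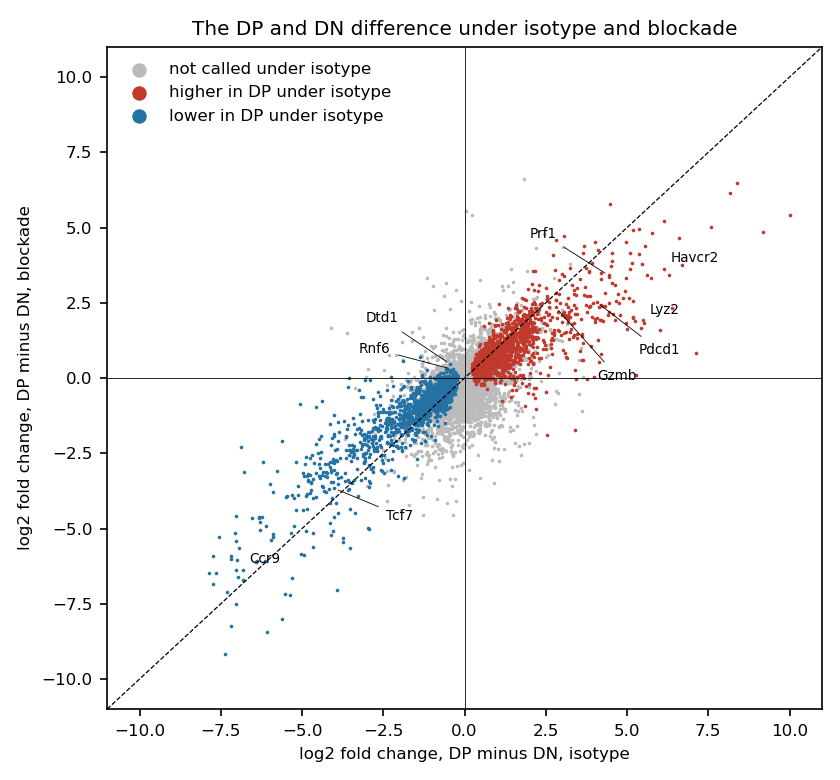
Each point is a gene with counts in both groups, with the log2 fold change DP minus DN under isotype across and under blockade up; red and blue mark genes called higher and lower under isotype, and the dashed line marks equal values. Most coloured points lie on the side of 0 that they have under isotype, and Havcr2 (6.15 under isotype, 3.63 under blockade) lies below the line.

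The genes called here were also followed in the PD-1- subset libraries, a separate experiment with its own normalization, which holds effector-like, memory-like and naive-like cells. Of 11899 genes tested in both, the 1780 higher in DP cells had a median difference of 0.36 between effector-like and naive-like cells, 76.7% of them above 0 against 51.9% of all genes, and 10.1% were called higher there, against 2.67% of all genes. The 1835 lower in DP cells had a median of -0.41, and 17.3% were called lower, against 3.92%. Between memory-like and naive-like cells the medians were 0.33 and -0.27, with 10.3% called higher and 13.2% called lower, against 2.74% and 2.83%. Between effector-like and memory-like cells the medians were 0.0052 and -0.17, with 50.3% and 37.5% of genes above 0 against 51.5% of all genes, and 1.12% called higher and 6.16% called lower, against 0.496% and 1.47%. These contrasts share libraries. Some genes with UMIs in dendritic marker cells were highest in memory-like cells. Ccr9 was at a mean of 208 CPM (SD 120) there, against 14.2 (SD 8.67) in effector-like and 49.3 (SD 45.1) in naive-like cells. Pld4 was at 196 CPM (SD 144) in memory-like cells, against 23.1 (SD 17.4) and 47.8 (SD 51.3). The part of such cells in these contrasts was not tested. All of these subsets were sorted as PD-1-.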

How the data were processed

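RNA of about 2000 sorted cells per library was amplified with an adapted SMART-Seq2 protocol, per the labels. The authors deposited expected counts per gene, not scaled for depth, of which 30.5% were not whole, and a normalized signal, which was proportional to the counts within a gene for 100% of 3716 genes checked (within 1%) and was not tested. The submitters' processing notes name TopHat, RSEM and DESeq with mm9 for bulk libraries and Cell Ranger 1.3 with mm10 for single cells; roles and other versions are not given in the sources used here. The authors' deposited single-cell table holds UMI counts. No coordinates of mm9 were used, and promoters are from RefSeq (GRCm38.p6).

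Counts were rounded and all 12 bulk libraries of the treatment experiment fitted together with edgeR 4.0.16 under R 4.3.3 (filterByExpr, TMM, quasi-likelihood test, 1 mean per group, no block), which gives a shared spread (biological coefficient of variation 0.229). P-values were adjusted by Benjamini-Hochberg over 12710 genes and called under 0.05. CPM use library totals of the genes tested, multiplied by their TMM factors. Where a group had no counts, 3 counts over its summed depth served as the limit, 0.094 CPM in DP and 0.107 CPM in DN libraries, for counting error only. Folds given as at least are the mean of the other group over this limit. Scripts were tested on simulated data. Alternatives were RLE scaling, no or a stricter filter (5 CPM in 3 libraries), leaving out Rn45s or each library, replicate blocks, only 6 libraries, and DESeq2 1.42.0. Single cells were described with Python 3.11.15 and pandas 2.3.3.

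Genes were named by a rule: the sorted genes, the 15 genes of smallest p each way with no overlap, up to 5 called members each way per list, and a panel of T cell state genes. The gene lists and this comparison were chosen with earlier results of these data known. Gzmc to Gzmg, Hif1a, Irf4, Arnt2, Foxo1, Satb1, Myc, Dapl1, Nkg7, Eno1, Slc16a3, Il1r2, Prc1, Mcm6, Klra2, Blk and Pax5 were added after their values were seen. Other genes picked by it appear only within counts, and some are not reported here.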

Additional observations from a re-analysis of the deposited data

Results flagged for a closer look

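Of the 3794 genes called under isotype, 2 were called in the opposite direction under blockade, which is what brought them here. Dtd1, which encodes a D-aminoacyl-tRNA deacylase, was at 19.4, 16.2 and 17.7 CPM in the DP libraries, against 25.4, 22.3 and 24.4 CPM in the DN libraries under isotype (log2 difference -0.44 ± 0.14, adjusted p = 0.0309), and at 25.1, 24.4 and 23.9 CPM in DP against 20.3, 15.8 and 17.03 CPM in DN libraries under blockade (0.46, adjusted p = 0.0258). The isotype minus blockade difference was -0.90 ± 0.20. The isotype call of Dtd1 was lost without DP replicate 2 or 3 or DN replicate 1 or 3 (adjusted p = 0.0591 to 0.126), with no filter on low counts (0.0979), with only the 6 isotype libraries (0.0731), and with a replicate block by name number in 12 libraries (0.0569) or by name or title number in 6 (0.0858 and 0.138). Rnf6, a ubiquitin ligase, was at 54.3, 53.5 and 55.9 CPM in the DP libraries, against 66.04, 72.8 and 72.2 CPM in the DN libraries under isotype (-0.37 ± 0.10, adjusted p = 0.0114), and at 66.9, 62.4 and 65.6 CPM in DP against 48.1, 58.1 and 53.5 CPM in DN libraries under blockade (0.29, adjusted p = 0.0406), a difference of -0.65 ± 0.13. Its isotype call was lost with the block by title number in 6 libraries (adjusted p = 0.102). The libraries of a treatment did not overlap in either gene, but the direct test of the difference between treatments passed for neither (edgeR, adjusted p = 0.261 for both).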

How the results depend on the processing

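The 3794 calls were 3795 with RLE scaling, 3480 without a filter, 3622 with a stricter one, 3807 without Rn45s, 3189 with only the 6 isotype libraries and 4074 with DESeq2. Leaving out 1 isotype library gave 2880 to 4041 calls, 1492 to 2007 higher and 1388 to 2034 lower, and 0 for the test of isotype against blockade. Numbers in the titles and in the library names pair DP with DN libraries differently, and neither is said to mark a mouse or day. Deviations of log CPM from the group means were correlated between DP and DN isotype libraries. Same-numbered libraries gave -0.334 to -0.006 by title and -0.006 to 0.326 by name. By name, DP replicates 2 and 3 were nearest to the DN library of their own number (0.326 and 0.268). DP replicate 1 was nearest to DN replicate 2 (0.0946) and not to its own number, so neither pairing is established. With the title number as a replicate block there were 3548 calls in 12 libraries and 1930 in the 6 isotype libraries (940 higher and 990 lower, against 1909 and 1885), of which 1918 were among the 3794. With the name number as a block there were 3855 and 3517. For the difference between isotype and blockade, 7 genes were called without a filter, 1 with the title block, 1 with the name block and 97 with DESeq2, against 0; the cause was not tested. Of 268 called genes in the text and its naming rule, 31 were not called with the title block in 6 libraries, 0 with DESeq2 and 0 to 17 under the others. Without DN replicate 2 Nr4a1 had the opposite sign, 0.015 against -0.15 (down to -0.31 without DP replicate 3), and was called in none of these. Across all alternatives the median of all genes lay between -0.0256 (without DP replicate 2) and 0.0344 (without DN replicate 1). With RLE scaling it was -0.000463. The 2-library arms assume that those libraries vary like the others. Depth limits what is said of genes near 0: their fitted differences moved most, as for Klra6 (-7.74, and -11.56 without DP replicate 2).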

Other observations

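Whole gene families, chosen after their values were seen and described by counts only, differed as follows; kinesins, serpins and cathepsins hold members of the lists above, so that their counts partly repeat those. Of 79 genes of cytosolic ribosomal proteins, 56 were lower in DP cells (70.9%, against 14.8% of all genes) and 1 higher, with a median difference of -0.37. Mitochondrial ribosomal proteins went the other way, with 18 of 76 higher (23.7%, against 15%) and a median of 0.25. Of 39 proteasome subunits, which degrade tagged proteins, 22 were higher (56.4%), with a median of 0.31. Histone genes, whose near-identical copies share reads and whose mRNA is made mainly in S phase, were higher for 26 of 49 (53.1%), with a median of 1.59.

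Cathepsins, proteases of the lysosome, were lower for 7 of 11 (63.6%) and higher for 3 (27.3%), Ctsd among them (1.38). Serpins, which include the granzyme B inhibitor Serpinb9, were higher for 9 of 15 (60.0%) with a median of 1.41. S100 proteins were higher for 4 of 9 (44.4%) and annexins for 3 of 10 (30%), against 15% of all genes. Kinesins, motors of which several build the spindle, were higher for 13 of 30 (43.3%), and solute carriers for 29 of 215 (13.5%) and lower for 39 (18.1%), near the shares of all genes. Exph5, chosen for its counts of 0, was at 33.4, 24.2 and 19.9 CPM in DP libraries and had 0 counts in DN libraries, at least 241-fold higher.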
